A study of Homo sapiens with 9 samples.

Results

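The region described here is a stretch of 2.5 Mb at 9p21 (hg19, chromosome 9, 20500000 to 23000000) that holds the genes MTAP, CDKN2A and CDKN2B. Its members are all listed peaks whose summit lies in that stretch, 21 of the 27108 peaks in the 3 lists of the series. They comprise 4 HA-BAZ2B peaks, 14 H3K4me3 peaks and 3 WT peaks. All groups are CUT&Tag libraries of A549 cells, a human lung adenocarcinoma line, with 3 replicates each. In the HA-BAZ2B group the cells' own BAZ2B gene carries an HA tag inserted at its 5' end, and an anti-HA antibody was used. In the H3K4me3 group the same tagged cells were profiled for H3K4me3, a histone mark of active promoters. The WT group is wild-type cells without a tag, with the same anti-HA antibody, so its peaks are the background of the assay without the tag. The labels do not say whether the tagged line is a single clone. The labels' protocols describe an siRNA transfection without assigning it to a library. Each list holds the positions and scores of 1 library, filtered for peaks seen in at least 2 replicates, so no value has a replicate error and no test over samples was possible. Library depth is unknown.

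CDKN2A encodes p16INK4a, which inhibits the cyclin-dependent kinases CDK4 and CDK6 and so keeps the RB protein active, and, from a separate first exon, p14ARF, which stabilises p53 by binding MDM2. CDKN2B encodes p15INK4b, a close relative of p16INK4a with the same kinase targets. MTAP encodes methylthioadenosine phosphorylase, an enzyme of methionine salvage, and is often lost together with CDKN2A in tumours. The locus is known to be deleted in A549. BAZ2B, a bromodomain protein, is an accessory subunit of chromatin remodelers built on an ISWI motor, and the study concerns its part in suppressing G-quadruplexes, four-stranded structures of guanine-rich DNA.

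The start regions of the 3 genes are shown because the locus divides between them: MTAP lies at a listed peak and the CDKN2A and CDKN2B starts lie in the gap. They are RefSeq promoters of GRCh38.p14, each with 250 bases before and 50 after a start, 5' to 3', and their coordinates cannot be set against the hg19 peak positions. The MTAP promoter is chr9:21802386-21802685, plus strand. The lower CDKN2A promoter, for the p16INK4a start, is chr9:21974808-21975107, minus strand. The upper one is chr9:21995275-21995574, minus strand, and the CDKN2B promoter is chr9:22009256-22009555, minus strand. The upper CDKN2A promoter is named by its order alone. It was not matched to the upper start site used for the peaks (hg19 21994490, p14ARF). Capitals mark a G-quadruplex motif, 4 runs of GGG with 1 to 7 bases of any kind between them, searched without overlap on both strands.
MTAP: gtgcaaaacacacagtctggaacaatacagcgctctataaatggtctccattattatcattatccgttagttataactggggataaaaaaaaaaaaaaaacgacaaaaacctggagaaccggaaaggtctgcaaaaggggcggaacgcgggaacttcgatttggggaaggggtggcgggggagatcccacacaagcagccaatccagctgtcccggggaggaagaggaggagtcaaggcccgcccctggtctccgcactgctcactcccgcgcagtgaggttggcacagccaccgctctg
CDKN2A, lower: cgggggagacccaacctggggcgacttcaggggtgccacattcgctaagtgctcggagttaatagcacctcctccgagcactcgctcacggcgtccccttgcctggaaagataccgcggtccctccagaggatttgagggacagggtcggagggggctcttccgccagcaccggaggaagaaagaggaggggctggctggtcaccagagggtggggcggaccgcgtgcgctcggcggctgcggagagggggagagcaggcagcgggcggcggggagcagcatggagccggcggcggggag
CDKN2A, upper: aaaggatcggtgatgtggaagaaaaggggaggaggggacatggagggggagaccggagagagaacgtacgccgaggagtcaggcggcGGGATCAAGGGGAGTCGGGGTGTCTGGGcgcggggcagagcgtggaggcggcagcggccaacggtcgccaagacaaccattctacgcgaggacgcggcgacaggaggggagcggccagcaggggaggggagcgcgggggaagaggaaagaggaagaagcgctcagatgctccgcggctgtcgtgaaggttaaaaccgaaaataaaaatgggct
CDKN2B: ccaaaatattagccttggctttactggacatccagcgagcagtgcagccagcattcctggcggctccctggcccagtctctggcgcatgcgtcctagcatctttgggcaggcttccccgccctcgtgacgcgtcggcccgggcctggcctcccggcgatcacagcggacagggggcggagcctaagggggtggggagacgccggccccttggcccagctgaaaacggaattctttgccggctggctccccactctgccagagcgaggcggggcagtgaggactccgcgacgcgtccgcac

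The upper CDKN2A promoter held 1 such motif, on the printed strand, and the other 3 sequences held none on either strand. That motif is not shown to lie at the p14ARF start site used for the peaks. Among all 35116 RefSeq promoters of the same length, 14.3% held the motif on the printed strand and 24.9% on either strand. The GC content was 53.0% for the MTAP promoter, 69.0% for the lower CDKN2A promoter, 63.3% for the upper one and 67.3% for CDKN2B. The median over all promoters was 58.7%. The match is a description of the letters in these windows.

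The start site of MTAP carried a peak in both lists of the tagged line, and the start sites of CDKN2A and CDKN2B carried none in any list. At MTAP (hg19 start site 21802635) the HA-BAZ2B peak ran from 21802260 to 21803845, with an enrichment of 7.29-fold over the peak caller's own background and a −log10 q, the peak caller's significance, of 37.4. The H3K4me3 peak there ran from 21801889 to 21803748, with a fold enrichment of 8.21 and a −log10 q of 74.3. The WT list had no peak at MTAP, and its nearest summit lay 644 kb away. Reads from the MTAP start were thus counted in both tagged-line libraries that the lists come from. Copy number was not measured, so these peaks stand beside the known deletion without a test of its extent.

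Both MTAP peaks covered the start site. The HA-BAZ2B peak reached from 375 bp before it to 1210 bp after it, with the summit 289 bp into the gene. The H3K4me3 peak reached from 746 bp before to 1113 bp after, with the summit 249 bp into the gene. The summits lay 40 bp apart, and the HA-BAZ2B peak was 0.853 times as wide as the H3K4me3 peak. Over all 6725 HA-BAZ2B peaks on an H3K4me3 peak the medians were 86 bp and 0.917. Within its own list the HA-BAZ2B peak at MTAP was ordinary in height, above 35.9% of peaks by fold enrichment, and fairly broad, wider than 76.0%. The H3K4me3 peak at MTAP was likewise above 38.8% by fold enrichment, and wider than 91.9%. By −log10 q both ranked higher, the HA-BAZ2B peak above 73.5% of its list and the H3K4me3 peak above 92.9%.

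**Figure D1:**
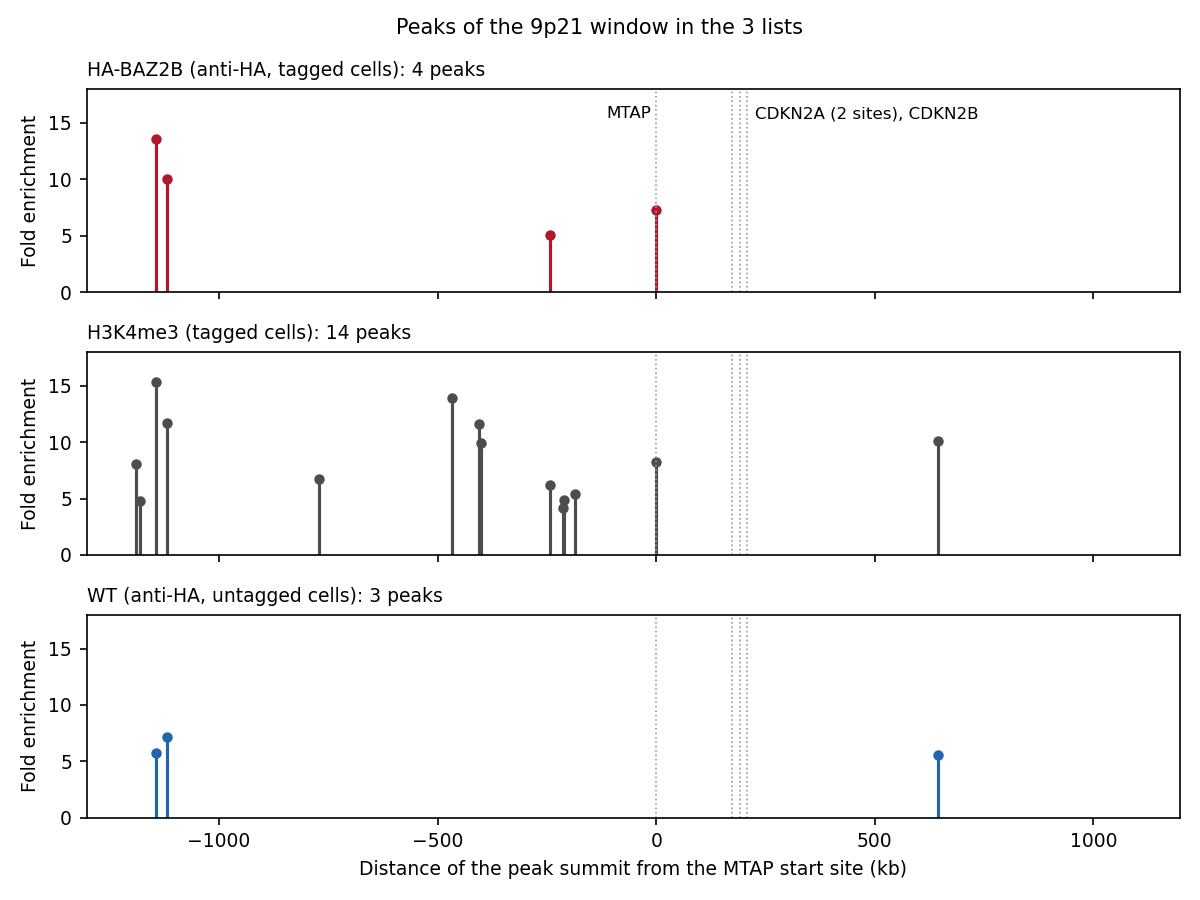
The authors' fold enrichment of every listed peak of the 9p21 window (vertical axis) against the distance of its summit from the MTAP start site in kb (horizontal axis), with HA-BAZ2B at the top, H3K4me3 in the middle and WT at the bottom. Dotted lines mark the start sites. The HA-BAZ2B and H3K4me3 lists have a peak at MTAP, and no list has one at the 3 start sites of CDKN2A and CDKN2B.

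The lower CDKN2A start site (21974826), that of p16INK4a, lay 172 kb beyond the MTAP start. The upper one (21994490), that of p14ARF, followed 19.7 kb further on, and the CDKN2B start site (22009312) 14.8 kb after that. The nearest HA-BAZ2B and H3K4me3 summits to all 3 sites were those at MTAP. For HA-BAZ2B they were 172 kb from the lower CDKN2A site, 192 kb from the upper one and 206 kb from CDKN2B. For H3K4me3 the distances were the same to the nearest kb. On the far side the next H3K4me3 summit was 472 kb from the lower CDKN2A site, 453 kb from the upper one and 438 kb from CDKN2B. The nearest WT summits were on that far side, at 472, 452 and 438 kb. Of the 4 start sites, 1 lay within 1 kb of a HA-BAZ2B summit, 1 within 1 kb of an H3K4me3 summit and 0 within 1 kb of a WT summit.

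The gap over CDKN2A and CDKN2B differed in length between the lists: the HA-BAZ2B and H3K4me3 gaps opened at the same site, MTAP, and the H3K4me3 and WT gaps closed at the same far site. In the H3K4me3 list it ran 644 kb, from the summit at MTAP (21802884) to one at 22447243. Distances of at least that length made up 5.15% of the 16994 between consecutive H3K4me3 summits on the assembled chromosomes, which include those across centromeres, and 37 of 711 on chromosome 9. The stretches on either side of the region were longer: 1147 kb before the first H3K4me3 peak of the window (19464945 to 20611999) and 1379 kb after the last one (22447243 to 23826451). The median distance in the list was 61.5 kb.

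In the HA-BAZ2B list the gap ran 5.09 Mb, from the MTAP summit (21802924) to 26892198, because no HA-BAZ2B peak was listed at the H3K4me3 peak that closed the shorter gap. Distances of at least that length made up 0.96% of the 6770 in the HA-BAZ2B list, and 3 of 268 on chromosome 9. The list's median distance was 129 kb. In the WT list the gap ran 1.76 Mb, from 20684512 to 22446905, since no WT peak was listed at MTAP, and 19.7% of the 2365 distances in that list were at least as long (median 379 kb). The WT gap closed at a weak peak with a −log10 q of 4.39, and with WT peaks under a −log10 q of 5 left out it ran 13365 kb. Lists of different length have different distances, so the 3 lengths do not measure a change.

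**Figure D2:**
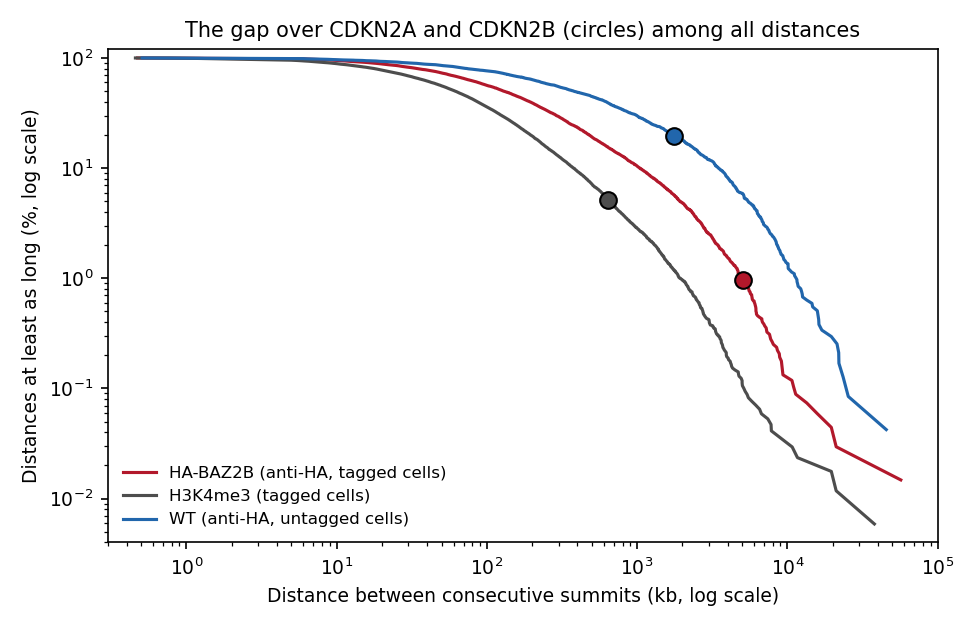
Share of distances between consecutive summits that are at least as long as the distance on the horizontal axis (kb), for the HA-BAZ2B, H3K4me3 and WT lists, with both axes on a log scale. Circles mark the gap over CDKN2A and CDKN2B, at 0.96% of the HA-BAZ2B distances, 5.15% of the H3K4me3 distances and 19.7% of the WT distances.

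The numbers in the peak names show what the source libraries held between listed peaks, since they ascended along every chromosome in all 3 lists. Between the flanks of the gap, 3 numbers were skipped in the HA-BAZ2B list, 2 in the H3K4me3 list and 5 in the WT list. So up to 3, 2 and 5 peaks were called there in those single libraries and did not recur, at positions the lists do not give. Such a peak at CDKN2A, CDKN2B or, for WT, at MTAP is possible. From the first to the last listed peak of the window, each list counted in, 4 of 8 HA-BAZ2B numbers (50.0%), 14 of 18 H3K4me3 numbers (77.8%) and 3 of 8 WT numbers (37.5%) were listed. Numbers skipped just outside those spans may also lie in the window. From the first to the last listed peak of chromosome 9 the shares were 40.6% for HA-BAZ2B, 78.8% of H3K4me3 numbers and 24.9% of WT numbers. Deleted DNA, unmarked promoters and peaks that did not recur cannot be told apart at CDKN2A and CDKN2B from these lists, which hold no copy number and no signal outside peaks.

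Of the 14 H3K4me3 peaks, 12 stood on the telomeric side of MTAP. The 1.30 Mb of the window before the MTAP start held those 12, and the 1.20 Mb after it held the peak at MTAP itself and 1 other. The HA-BAZ2B list had 3 peaks before MTAP, 1 at MTAP and 0 beyond. The WT list had 2 before MTAP and 1 beyond CDKN2B. Counted over the whole window, the region was not poor in H3K4me3 peaks. Its 14 stood against a median of 10 per 2.5 Mb window of the assembled chromosomes. The region held 1.60 HA-BAZ2B peaks per Mb, against 1.91 on the rest of chromosome 9, and 5.60 H3K4me3 peaks per Mb, against 5.03. WT peaks came to 1.20 per Mb in the region, against 0.584 on the rest of chromosome 9. The densities for the rest of chromosome 9 use its full hg19 length, unsequenced stretches included, which lowers them. The H3K4me3 densities thus do not show an excess in the region. Among 1229 windows of 2.5 Mb tiled over the assembled chromosomes, unsequenced stretches included, 59.2% held at most 4 HA-BAZ2B peaks, 66.4% at most 14 H3K4me3 peaks and 83.6% at most 3 WT peaks.

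In RefSeq gene order (GRCh38.p14, used for order only), the protein-coding genes from the telomeric side are MLLT3, FOCAD and HACD4. They are followed by 17 genes, of which 16 are interferon genes and the other is KLHL9, and then by MTAP, CDKN2A, CDKN2B, DMRTA1 and ELAVL2. DMRTA1 is thus the next protein-coding gene beyond CDKN2B, and 0 lie between it and ELAVL2. No annotation of hg19 was at hand beyond the start sites of MTAP, CDKN2A and CDKN2B, so the other peaks are given by position and are not assigned to genes. The start sites of other genes of the RB pathway were not analysed here for the same reason.

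The HA-BAZ2B peaks of the region with the highest fold enrichment were a pair on the telomeric flank, with summits 25.9 kb apart, and both also carried a WT peak. At the first, the HA-BAZ2B peak (20658231 to 20659073) had a fold enrichment of 13.6, above 97.1% of its list. The H3K4me3 peak there had a fold enrichment of 15.3, above 97.9% of its list, and the WT peak one of 5.71, above 32.8% of its list. At the second (HA-BAZ2B, 20683703 to 20684991), HA-BAZ2B had a fold enrichment of 10.01, H3K4me3 one of 11.7 and WT one of 7.12, above 75.2%, 80.5% and 65.9% of their lists. By fold enrichment the first site thus stood near the top of both tagged-line lists and in the lower part of the WT list. The second stood in the upper part of all 3 by that measure. By −log10 q both WT peaks were low, at 5.01 and 8.22, above 12.3% and 36.1% of the WT list. The HA-BAZ2B peaks stood above 84.5% and 57.8% of their list by −log10 q, and the H3K4me3 peaks above 94.9% and 98.3%. Fold enrichments are not scaled between lists, so these values do not measure a difference between the lines.

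The shape of the WT peaks differed between that pair. At the first site the HA-BAZ2B peak was 843 bp wide, the H3K4me3 peak 1040 bp and the WT peak 785 bp. The HA-BAZ2B summit lay 32 bp from the H3K4me3 summit and the WT summit 371 bp from it. At the second site the HA-BAZ2B peak was 1289 bp wide, the H3K4me3 peak 1297 bp and the WT peak 490 bp, with summits 1 bp and 32 bp from that of H3K4me3. The HA-BAZ2B peak was thus 0.811 and 0.994 times as wide as the H3K4me3 peak, and the WT peak 0.755 and 0.378 times. Over whole lists the medians were 0.917 for HA-BAZ2B and 0.500 for WT.

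The other 2 HA-BAZ2B peaks, at MTAP and 243 kb before it, had no WT peak. The one before MTAP (21558781 to 21559874) had a fold enrichment of 5.05, lower than that of most peaks of its list (above 9.51%), over 1094 bp. Its H3K4me3 partner (21558845 to 21560333) had a fold enrichment of 6.24 over 1489 bp, and the summits lay 6 bp apart. By fold enrichment, this site was low in both tagged-line lists. The HA-BAZ2B peak had a −log10 q of 22.7 and the H3K4me3 peak one of 53.2.

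The far flank of the gap differed from MTAP in its anti-HA peaks: it had a WT peak and no HA-BAZ2B peak. The H3K4me3 peak there (22446716 to 22448039) had a fold enrichment of 10.1 and a −log10 q of 62.8. The WT peak (22446729 to 22447445) had a fold enrichment of 5.53 and a −log10 q of 4.39, above 8.04% of the WT list, and its summit lay 338 bp from that of H3K4me3. In the HA-BAZ2B library up to 3 peaks between 21802924 and 26892198 were called and not kept, so a peak at this site that did not recur is possible.

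**Figure D3:**
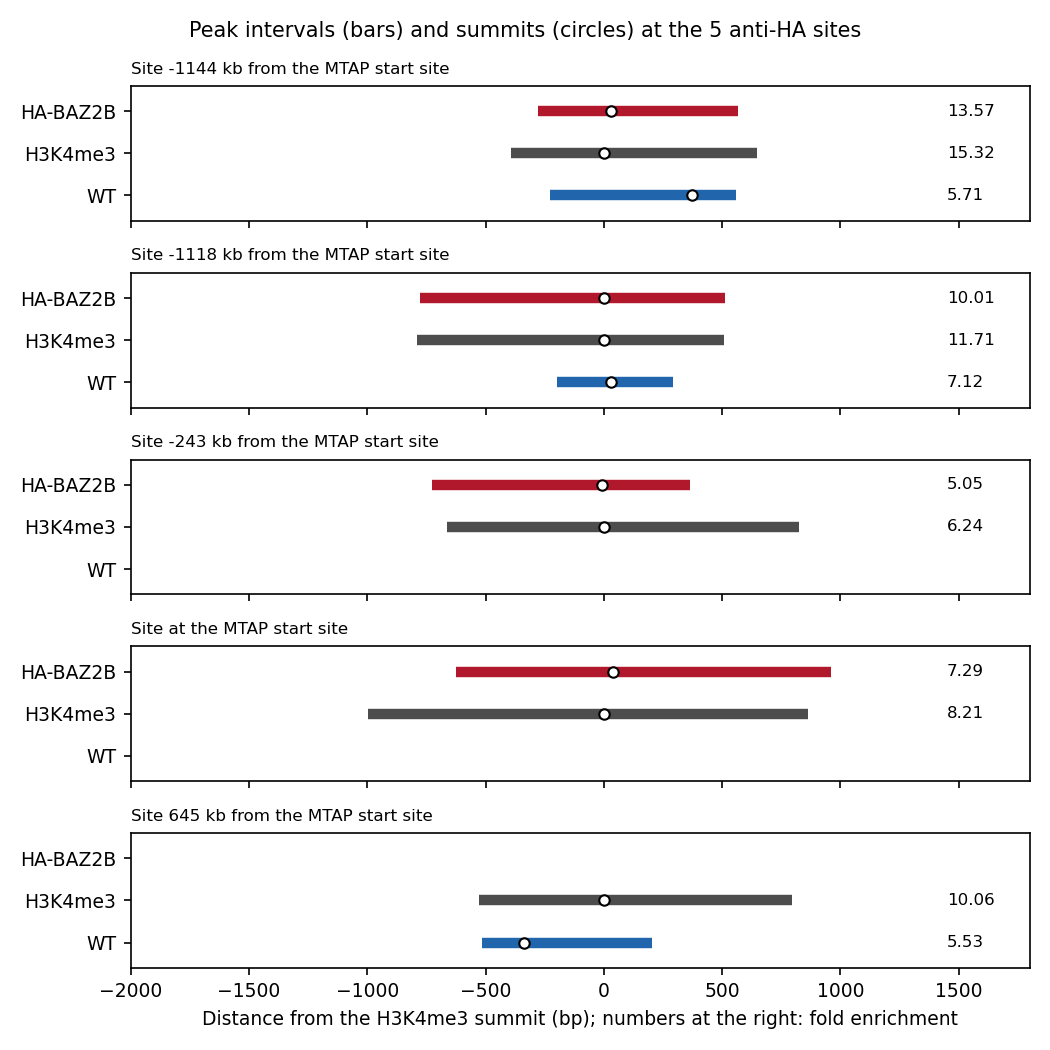
Intervals (bars) and summits (circles) of the HA-BAZ2B, H3K4me3 and WT peaks at the 5 anti-HA sites of the window, by distance from the H3K4me3 summit in bp, with fold enrichment printed at the right. The first 2 sites carry all 3 peaks, the sites 243 kb before MTAP and at MTAP carry HA-BAZ2B and H3K4me3, and the last carries WT and H3K4me3.

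All 4 HA-BAZ2B peaks of the region and all 3 WT peaks overlapped an H3K4me3 peak by at least 1 bp, as 99.0% of HA-BAZ2B peaks and 93.4% of WT peaks did on the assembled chromosomes. Of the 4 HA-BAZ2B peaks, 2 overlapped a WT peak, against 28.7% of the whole list. Of the 3 WT peaks, 2 overlapped a HA-BAZ2B peak, against 81.0% of the list. Seen from H3K4me3, 4 of 14 peaks carried HA-BAZ2B (28.6%, exact Clopper-Pearson 95% interval 8.39 to 58.1%), against 39.5% of the 17018 H3K4me3 peaks and 38.1% of those on the rest of chromosome 9. A WT peak lay on 3 of 14 (21.4%, 4.66 to 50.8%), against 13.1% of the list and 10.6% on the rest of chromosome 9. Both intervals include the share of the whole list, but with 14 peaks they are wide, so this decides little. They treat neighbouring peaks as independent and cover counting error over peaks only.

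The 7 H3K4me3 peaks with the highest −log10 q (40.2 to 87.8) held all 4 that carried HA-BAZ2B and all 3 that carried WT. The 7 lowest (5.03 to 19.4) carried neither. With the whole H3K4me3 list divided evenly into 10 classes by −log10 q, those 7 fell in classes 1 to 3, in which 8.23 to 16.3% of peaks carried HA-BAZ2B and 6.23 to 8.34% carried WT, so a count of 0 among 7 is near the shares of the list. The 7 highest fell in classes 5, 7, 9 and 10, in which 35.7 to 77.6% carried HA-BAZ2B and 8.41 to 30.5% carried WT. A count of 4 with HA-BAZ2B among those 7 is likewise near the shares of the list. The ranges of H3K4me3 peaks with and without HA-BAZ2B overlapped by both measures. The −log10 q ran from 53.2 to 87.8 with HA-BAZ2B and from 5.03 to 82.4 without. Fold enrichment ran from 6.24 to 15.3 with HA-BAZ2B and from 4.12 to 13.9 without. Width ran from 1040 to 1860 bp (median 1393 bp) with HA-BAZ2B and from 299 to 2618 bp (median 805 bp) without.

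Of the 7 highest, 2 carried no anti-HA peak. One (21334608 to 21335650), 467 kb before MTAP, had a fold enrichment of 13.9 and a −log10 q of 82.4. It belonged to class 10, the highest, in which 77.6% of peaks carried HA-BAZ2B and 30.5% carried WT. The other (20620549 to 20623166) was the broadest of the region at 2618 bp, wider than 99.2% of its list, but low in fold enrichment at 4.77. It fell in class 5, in which 35.7% carried HA-BAZ2B. The H3K4me3 peak on the far flank of the gap belonged to class 9, in which 66.9% carried HA-BAZ2B and 22.97% carried WT. The H3K4me3 peak at MTAP, with HA-BAZ2B and without WT, was in class 10, where most peaks carried HA-BAZ2B and most carried no WT peak.

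**Figure D4:**
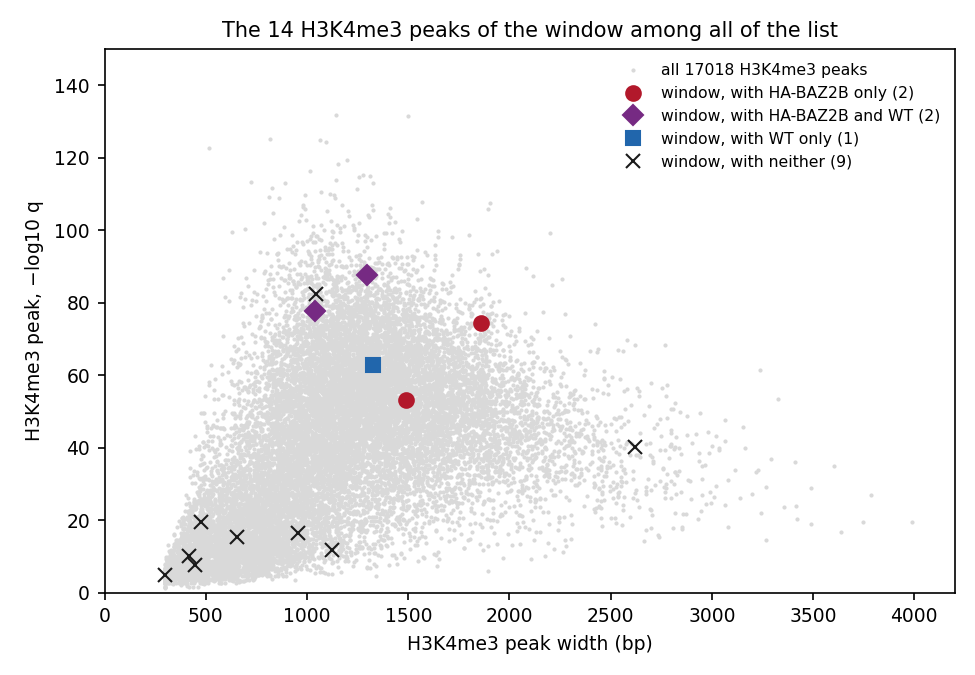
Width in bp (horizontal axis) and −log10 q (vertical axis) of the 14 H3K4me3 peaks of the window, marked by the anti-HA peaks they carry, over all H3K4me3 peaks of the assembled chromosomes in grey, of which 1 lies outside the axes. The 4 peaks with HA-BAZ2B have a −log10 q of 53.2 to 87.8, and 7 of the 9 peaks with neither HA-BAZ2B nor WT lie at 19.4 or lower.

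The remaining H3K4me3 peaks of the telomeric side were low in significance and mostly narrow. One stood 771 kb before MTAP (21031346 to 21031789), 444 bp wide and with a fold enrichment of 6.73, between stretches of 347 and 304 kb without a listed peak. A close pair of narrow peaks (21395918 to 21396395 and 21402372 to 21403027), with summits 6.62 kb apart, had fold enrichments of 11.6 and 9.96 over 478 and 656 bp. A pair 1.63 kb apart (21589500 to 21590623 and 21591006 to 21591959) was broader and lower, with fold enrichments of 4.12 and 4.84 over 1124 and 954 bp. The last peak before MTAP (21616337 to 21616635) was the narrowest of the region at 299 bp, with a fold enrichment of 5.39. The first peak of the window (20611791 to 20612206) had a fold enrichment of 8.08 over 416 bp. These are the 7 peaks in classes 1 to 3 by −log10 q.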

How the data were processed

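CUT&Tag was performed on 9 libraries in 3 groups, taken from the sample titles. The antibody labels of H3K4me3 replicates 2 and 3 end in other numbers, and the titles were followed. Reads were processed with Bowtie2 2.4.5, Picard, SAMtools 1.15.1, bedtools and MACS2 2.1.4 on the builds hg19 and dm6, as the submitters' processing notes list them. Peak calling settings, any control library and any spike-in scaling are not stated in those notes or the labels. Per the labels, peaks present in at least 2 replicates were kept, with rows from the largest peak file. The peak names show HA-BAZ2B replicate 3, H3K4me3 replicate 1 and WT replicate 2. The deposited fold enrichment (a ratio) and −log10 q of each peak are the authors' own.

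Peaks were selected by summit, converted to 1-based positions, and overlapped by at least 1 bp. Ranks and distances used 24 chromosomes, with hg19 lengths from GenomeInfoDb 1.38.1. Python 3.11.15, numpy 2.4.6, pandas 2.3.3, scipy 1.17.1 and matplotlib 3.10.9 were used. Overlaps and distances were tested on simulated data. There was no test over samples. The genes named are MTAP, CDKN2A and CDKN2B and neighbours in RefSeq order, and every peak of the window is described. The members and lists were chosen with earlier results of these data known. Alternatives were a −log10 q of at least 5, intervals or edges in place of summits, a window widened by 500 kb and an overlap of 50%.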

Additional observations from a re-analysis of the deposited data

How the results depend on the processing

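Of 48 values recomputed under an alternative, 27 stayed within the tolerance for their kind and 21 moved. That tolerance was far wider for counts and shares than for distances, so the tally does not measure robustness. A HA-BAZ2B gap of 5088 kb in place of 5089 kb was called moved. A share with WT of 14.3% in place of 21.4% was not. Of the 21 values that moved, 12 were distances taken to the peak edge and 3 were gaps between facing edges. Apart from the distances to MTAP in the tagged-line lists, these changed by a small part of their length. All counts of peaks in the window stayed within 1.5 times under every alternative, and widening the window by 500 kb on either side added 0 peaks. The tolerance of 1.5 times takes in the WT count, which fell from 3 to 2 with a −log10 q of at least 5. Between facing edges, the gap over CDKN2A and CDKN2B was 5088 kb for HA-BAZ2B, 643 kb for H3K4me3 and 1762 kb for WT. To the nearest peak edge, MTAP lay 0, 0 and 644 kb away, the lower CDKN2A site 171, 171 and 472 kb, the upper one 191, 191 and 452 kb, and CDKN2B 205, 206 and 437 kb, in the order HA-BAZ2B, H3K4me3, WT. With a −log10 q of at least 5, only WT values moved, because the peak on the far flank was lost: the gap ran 13365 kb with 23 skipped numbers, and the nearest WT summits lay 1118 kb from MTAP, 1290.3 and 1309.98 kb from the CDKN2A sites and 1325 kb from CDKN2B. The share of H3K4me3 peaks with a WT peak was 14.3% under that threshold, and also where 50% of the H3K4me3 peak had to be covered. No paired analysis was possible because the lists give no value per replicate, and no replicate could be left out for the same reason. Library depth is unknown, so a site without a listed peak is not shown to lack signal.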
